A study of Mus musculus with 6 samples.

Results

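Gpr157, Rasd2, Drd1, Ppp1r3c, Agpat9 and Amz1 were 6 of the 24411 genes in the count tables of primary microglia (PM), and they were chosen by name for transcripts that were present under GSK-J4 and lower when LPS was added. The choice rests on the comparison of LPS + GSK-J4 with GSK-J4 alone, the only comparison that these 6 libraries allow, so every level and fold change of the 6 genes is a description and carries no test. PM were grown from whole brains of 12 neonatal ICR mice, 3 days old, that were pooled, kept as a mixed glial culture and shaken loose from it. Of the libraries, 3 came from PM treated with GSK-J4 (10 μM) and 3 from PM that received LPS (10 ng/ml) on top of the same dose of GSK-J4, all at 4-h. GSK-J4, a cell-permeable inhibitor of the jumonji H3K27 demethylases, was therefore present in every library, and LPS, the bacterial endotoxin recognized by TLR4, differed between the groups. The study also had untreated and LPS-only PM, which were not analysed here, so the effect of GSK-J4 itself on the 6 genes is not part of these values, and "present under GSK-J4" refers to the level alone. The study itself lists Rasd2 among the genes that rose in PM given GSK-J4 alone.

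The 6 genes belong to unlike pathways. Drd1 encodes the dopamine receptor that couples to the stimulatory G protein and raises cAMP, and Rasd2 encodes Rhes, a small Ras-like GTPase enriched in the striatum that acts on signalling below dopamine receptors; both are best known from medium spiny neurons of the striatum. Gpr157 encodes an orphan G protein-coupled receptor. Ppp1r3c encodes a regulatory subunit that tethers protein phosphatase 1 to glycogen and so favours glycogen synthesis, Agpat9 (now Gpat3) encodes an acyltransferase of the endoplasmic reticulum that starts glycerolipid synthesis from glycerol-3-phosphate, and Amz1 encodes an archaemetzincin, a zinc metallopeptidase of poorly known function.

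The sequence before a RefSeq start is shown for 4 of the genes. Those of Gpr157 and Rasd2 had the most matches to a motif among the 6 genes. Those of Ppp1r3c and Agpat9 were the only ones with a match to another motif. Matches in Drd1 and Amz1, which are not shown, are in the counts below. Windows came from RefSeq on GRCm38.p6 and held the 250 bases before each start, of which the stretch that GENCODE places in an exon of the gene was left out. Capitals mark matches to any of 9 short motifs.

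Gpr157: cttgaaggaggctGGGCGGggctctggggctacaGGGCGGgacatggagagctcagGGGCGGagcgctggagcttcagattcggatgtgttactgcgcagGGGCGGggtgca

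Rasd2: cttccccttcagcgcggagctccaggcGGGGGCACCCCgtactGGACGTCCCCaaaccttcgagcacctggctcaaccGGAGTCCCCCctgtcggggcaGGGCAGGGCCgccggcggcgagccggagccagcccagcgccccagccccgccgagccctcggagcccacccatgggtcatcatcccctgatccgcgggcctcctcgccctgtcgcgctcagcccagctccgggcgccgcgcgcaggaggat

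Ppp1r3c: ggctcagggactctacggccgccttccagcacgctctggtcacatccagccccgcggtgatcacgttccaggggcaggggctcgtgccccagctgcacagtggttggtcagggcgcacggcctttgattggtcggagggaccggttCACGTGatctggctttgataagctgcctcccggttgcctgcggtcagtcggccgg

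Agpat9: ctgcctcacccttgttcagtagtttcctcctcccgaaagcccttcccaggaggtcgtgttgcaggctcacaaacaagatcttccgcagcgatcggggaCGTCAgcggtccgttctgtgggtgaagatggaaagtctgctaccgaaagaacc

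These are chr4:150087253-150087364 on the plus strand for Gpr157, chr8:75213694-75213943 on the plus strand for Rasd2, chr19:36736654-36736854 on the minus strand for Ppp1r3c and chr5:100845979-100846129 on the plus strand for Agpat9. They have 112, 250, 201 and 151 bases. The Agpat9 stretch lies within the gene as GENCODE places it (chr5:100845713-100899102), because the RefSeq start is further in. It also lies inside an exon of 4930458D05Rik, an antisense transcript of the other strand that was not among the features counted. The capitals in Gpr157 mark GGGCGG, the core of the GC box. In Rasd2 they mark GGG and CC with 5 bases between them, a loose form of the site of NF-κB-type factors. In Ppp1r3c they mark the E-box CACGTG, and in Agpat9 they mark TGACG, read on the minus strand, the core of the cAMP response element.

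All 6 genes had a RefSeq window, and Drd1 had 2, which gives 7 windows, each of 250 bases before and 50 after the start. The second window of Drd1, like that of Agpat9, lies within the gene as GENCODE places it. Motifs were searched on both strands. GGGCGG was in 4 of the 7 windows and in 35.7% of all 32851 promoter windows. Gpr157 alone had 7 matches to it, 4 of them in the stretch shown, and 0.627% of all windows had as many or more. The motif of GGG and CC with 5 bases between them was also in 4 of 7 windows, against 50.8% of all. Rasd2 had 7 matches to it at 5 positions, since the motif can match both strands at the same place, and 1.59% of all windows had as many or more. These shares take no account of base content, and both motifs are made of G and C. In the GC content of the 250 bases before the start, Rasd2 exceeded 96.1% of all windows and Gpr157 86.5%. CACGTG was in 1 of 7 windows, that of Ppp1r3c at 104 to 99 bases before the start (7.15% of all windows). TGACG was in 1 of 7, that of Agpat9 at 152 to 148 bases before the start (20.8% of all).

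No member window held TGACGTCA, the full cAMP response element, which contains TGACG and was in 1.79% of all windows. The same was true of TGANTCA, the AP-1 site (7.81%), GAAA repeated after 2 bases, an interferon-type element (3.44%), GAGGAAGT, a PU.1-type site (3.20%), and TATAAA, the TATA box (13.6%). No match says only that these letters are not in the window. The 250 bases before the start held between 5 and 27 CpG dinucleotides, against a median of 6 over all windows. Rasd2 had the 27 and exceeded 91.4% of all windows. The GC content was between 60.8 and 75.2%, against a median of 52.4%. All 7 windows were above the median in GC content and 6 of 7 in CpG, the second window of Drd1 being the one below it with 5, and no motif of the search was common to all.

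The libraries held 2597505 to 3472716 fragments counted on genes. Of these, the ribosomal RNA precursor Rn45s took 25.6% ± 5.88 under GSK-J4 and 47.1% ± 1.15 with LPS added (SD, n = 3 each). Levels are CPM without it, that is, counts for each 1000000 counts of the other genes, which came to 1754932 to 2697024 under GSK-J4 and 1558972 to 1715020 with LPS added. A level of 3 counts, 1.11 to 1.92 CPM depending on the library, was used as the floor. The label LPS was checked with Tnf, an immediate target of TLR4, which rose from 56.1 ± 11.2 to 6670 ± 382 CPM (SD, n = 3 each; edgeR, adjusted p = 3.47e-14). The microglial genes Csf1r and Cx3cr1 stood at 1232 ± 52.5 and 589 ± 27.3 CPM in GSK-J4. On the second principal component (15.9% of the variance), replicate 3 of both groups (-15.7 and -28.7) stood apart from the other libraries (3.21 to 20.2), so fold changes of the 6 genes are also given without it. The study describes the replicates of each treatment as biological and their RNA as independent, but whether they were separate cultures is not given in the sources used here, and p-values measure the spread between these libraries only.

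Of 9899 genes tested with edgeR, 80 were called lower in LPS + GSK-J4 (0.808%) and 307 higher (3.1%), where a call needed both an adjusted p no higher than 0.01 and a log2 fold change of 1.5 or more in size. Rasd2, Gpr157, Drd1 and Ppp1r3c, 4 of the 6 genes, were past both limits, and Agpat9 and Amz1 were not. For all 6 genes, each LPS + GSK-J4 library lay below each GSK-J4 library, as for 21.5% of all genes tested. The rule chose the genes on this contrast, so nothing is read from either count. The median log2 fold change of all genes tested was 0.01, and no other scaling moved it by more than 0.08. In RNA from whole cultures, fewer cells of a type and less RNA per cell cannot be told apart.

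**Figure D1:**
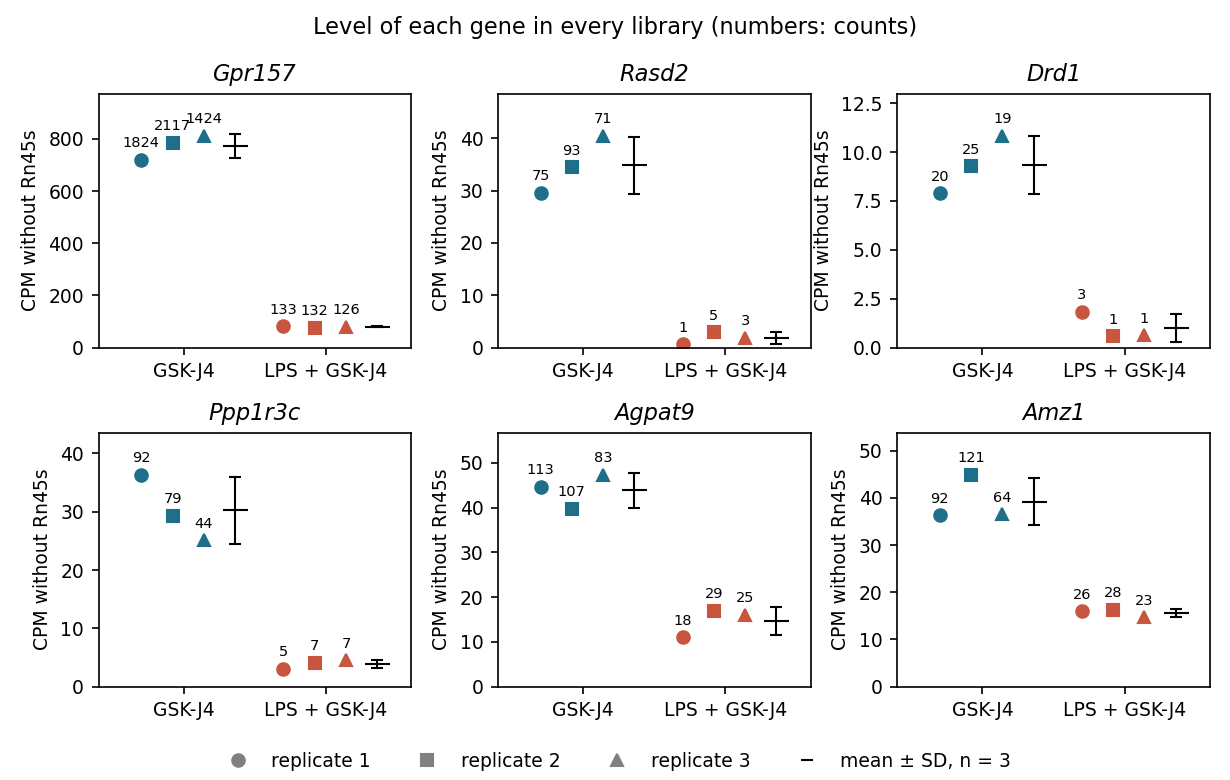
Level of each gene in CPM without Rn45s (vertical axes, from 0, a scale of its own for each gene) in the 3 GSK-J4 libraries (blue) and the 3 LPS + GSK-J4 libraries (orange), with the count behind each point printed above it and the mean ± SD beside the points. In each of the 6 panels the groups are apart, and in the LPS + GSK-J4 libraries Drd1 rests on 1 to 3 counts and Rasd2 on 1 to 5.

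Gpr157 (ENSMUSG00000047875.6, chr4:150087365-150105927, plus strand) was by far the most abundant of the 6. It had 1824, 2117 and 1424 counts in replicates 1, 2 and 3 of GSK-J4, or 720, 785 and 811 CPM, and 133, 132 and 126 counts in those of LPS + GSK-J4, or 81.7, 77.0 and 80.8 CPM. The libraries of each group lay close together, and the lowest GSK-J4 library was 8.81 times the highest LPS + GSK-J4 library. The mean was 772 ± 47.0 CPM under GSK-J4 and 79.8 ± 2.52 CPM with LPS added (SD, n = 3 each), a log2 fold change of -3.20 (SE 0.13). Over the summed counts, 5365 and 391, a level of 10.4% was left, with a counting interval of 9.35 to 11.5% (95%, exact binomial on the summed counts). These intervals cover counting error only. Without replicate 3 the log2 fold change was -3.15 (SE 0.10). This receptor was the gene with the second largest decrease of all those tested, and its counting interval was the narrowest of the 6 in relation to its value.

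Rasd2 (ENSMUSG00000034472.13, chr8:75213944-75224113, plus strand) had the largest decrease of all 9899 genes tested. Its counts were 75, 93 and 71 in replicates 1, 2 and 3 of GSK-J4 (29.6, 34.5 and 40.5 CPM) and 1, 5 and 3 in those of LPS + GSK-J4 (0.614, 2.92 and 1.92 CPM). All 3 GSK-J4 libraries were well above the floor, and the LPS + GSK-J4 libraries lay around it. The mean was 34.85 ± 5.43 CPM under GSK-J4 and 1.82 ± 1.15 CPM with LPS added, with a log2 fold change of -4.11 (SE 0.38). From 239 summed counts to 9, a level of 5.37% was left, with a counting interval of 2.42 to 10.4%. That interval leaves out the spread between libraries, and fits without 1 library gave log2 fold changes of -4.66 to -3.71. The place of Rasd2 ahead of Gpr157 was not firm: the log2 fold changes differed by 0.92 with an SE of 0.40. Without replicate 3 that of Rasd2 was -4.02 (SE 0.43).

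Drd1 (ENSMUSG00000021478.6, chr13:54051183-54055705, minus strand) was the least abundant of the 6 in both groups. It had 20, 25 and 19 counts in replicates 1, 2 and 3 of GSK-J4 (7.90, 9.27 and 10.8 CPM) and 3, 1 and 1 in those of LPS + GSK-J4 (1.84, 0.583 and 0.641 CPM). Every LPS + GSK-J4 library was at or below 3 counts, so what remained of this receptor's transcripts could not be told from the floor. The mean was 9.33 ± 1.47 CPM under GSK-J4 and 1.02 ± 0.711 CPM with LPS added, and the log2 fold change was -3.02 (SE 0.51), the third largest decrease. The 64 and 5 summed counts left a level of 11.1%, with a counting interval of 3.5 to 27.4%, the widest of the 6 in relation to its value. This decrease moved most with a single library: without LPS + GSK-J4 replicate 1, which held 3 of the 5 counts, the log2 fold change was -3.71, and without replicate 3 of both groups it was -2.69.

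Ppp1r3c (ENSMUSG00000067279.3, chr19:36731731-36736653, minus strand) had 92, 79 and 44 counts in replicates 1, 2 and 3 of GSK-J4 (36.3, 29.3 and 25.1 CPM). In those of LPS + GSK-J4 it had 5, 7 and 7 counts (3.07, 4.08 and 4.49 CPM). The GSK-J4 libraries spread more than those of Gpr157 (SD of 18.8% of the mean, against 6.08%) but none came near the other group. The mean was 30.2 ± 5.68 CPM under GSK-J4 and 3.88 ± 0.730 CPM with LPS added, with a log2 fold change of -2.87 (SE 0.30), the 5th largest decrease. From 215 summed counts to 19, this glycogen-targeting subunit kept 12.6% of its level (counting interval 7.44 to 20.2%). Without replicate 3 the log2 fold change was -3.07 (SE 0.35).

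Agpat9 (Gpat3, ENSMUSG00000029314.14, chr5:100845713-100899102, plus strand) had 113, 107 and 83 counts in replicates 1, 2 and 3 of GSK-J4 (44.6, 39.7 and 47.3 CPM) and 18, 29 and 25 counts in those of LPS + GSK-J4 (11.06, 16.91 and 16.04 CPM). The groups were apart, and the highest LPS + GSK-J4 library was 42.6% of the lowest GSK-J4 library. The mean was 43.9 ± 3.87 CPM under GSK-J4 and 14.7 ± 3.16 CPM with LPS added, and 33.9% of the level was left (counting interval 25.8 to 43.9%). Its log2 fold change of -1.49 (SE 0.22) lay just outside the limit of 1.5, and under 10 of 16 alternative settings it was past both limits. Without replicate 3 it was -1.48 (SE 0.24). In all, 89 genes had a larger decrease than this acyltransferase.

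Amz1 (ENSMUSG00000050022.16, chr5:140724127-140761439, plus strand) had the smallest decrease of the 6. Its counts were 92, 121 and 64 in replicates 1, 2 and 3 of GSK-J4 (36.3, 44.9 and 36.5 CPM) and 26, 28 and 23 in those of LPS + GSK-J4 (15.97, 16.33 and 14.75 CPM). The groups were apart, and the LPS + GSK-J4 libraries were the more even (SD of 5.26% of the mean, against 12.5%). The mean was 39.2 ± 4.89 CPM under GSK-J4 and 15.7 ± 0.826 CPM with LPS added, a log2 fold change of -1.24 (SE 0.21) that was past both limits under 0 of 16 alternatives. Of the level, 39.6% was left (counting interval 30.4 to 51.2%), and 155 genes had a larger decrease. Without replicate 3 the log2 fold change was -1.23 (SE 0.23).

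**Figure D2:**
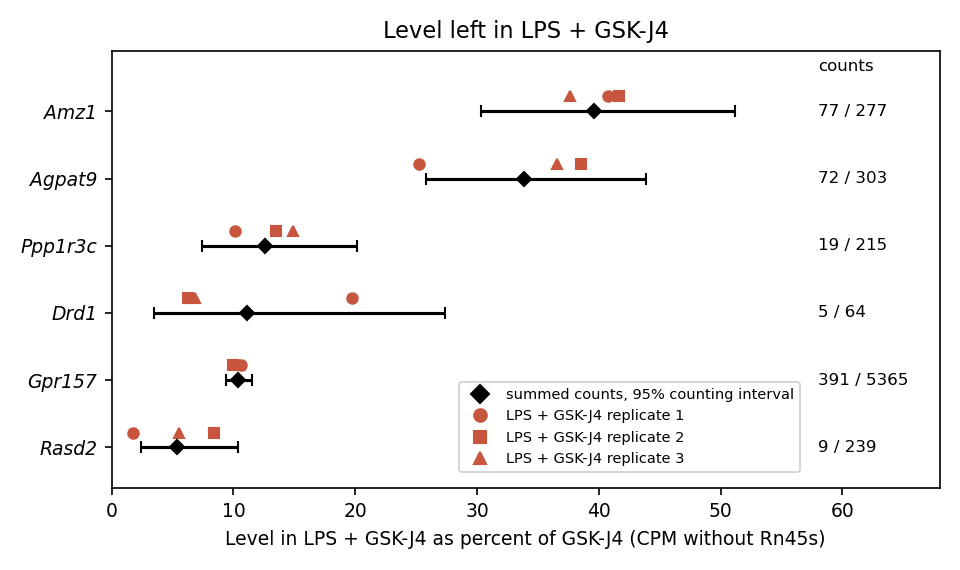
Level in LPS + GSK-J4 as a percent of that in GSK-J4 (horizontal axis, CPM without Rn45s) for each gene; diamonds and bars are the summed counts with a 95% counting interval, coloured points are the 3 LPS + GSK-J4 libraries against the GSK-J4 mean, and the numbers are summed counts in LPS + GSK-J4 and GSK-J4. Rasd2, Gpr157, Drd1 and Ppp1r3c sit between 5.37 and 12.6%, Agpat9 and Amz1 at 33.9 and 39.6%, and the bar of Drd1 alone spans 3.5 to 27.4%.

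In the size of the decrease, 4 genes had 5.37 to 12.6% of the level left and the other 2 had 33.9 and 39.6% left. The counting intervals of Drd1 (3.5 to 27.4%) and Agpat9 (25.8 to 43.9%) overlapped across this gap. The log2 fold changes of Gpr157 and Drd1 differed by 0.17 (SE 0.53), less than the SE. The same held for Drd1 and Ppp1r3c (0.15, SE 0.59) and for Agpat9 and Amz1 (0.25, SE 0.30). Ppp1r3c and Agpat9, neighbours across the gap, differed by 1.38 (SE 0.37). Each SE of a difference treats the 2 genes as independent, although they come from the same libraries. These differences describe genes chosen for their decrease and carry no test.

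**Figure D3:**
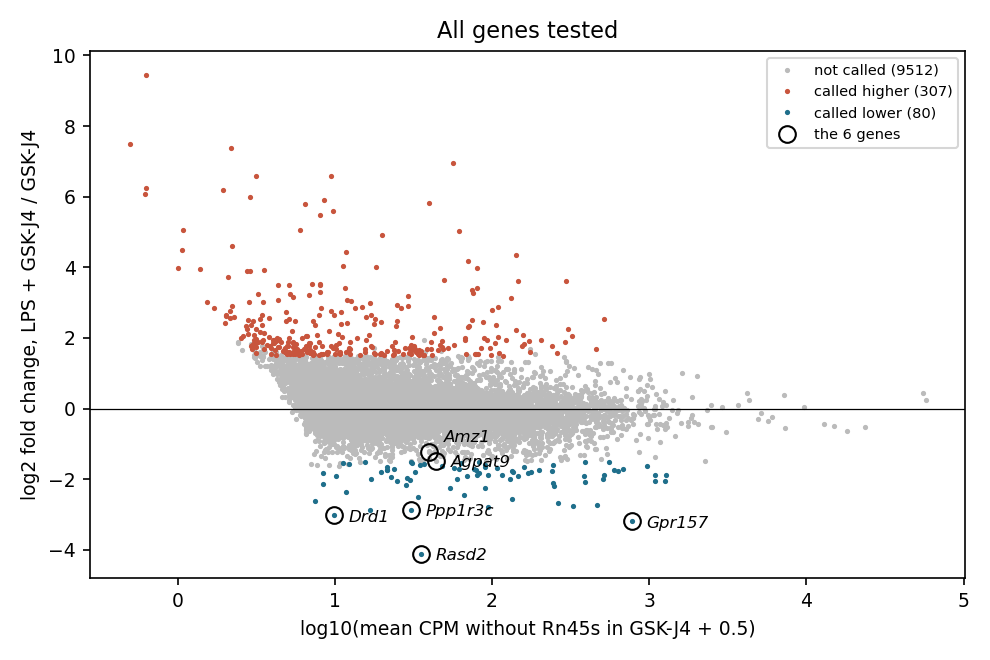
log2 fold change of LPS + GSK-J4 over GSK-J4 (vertical axis) against log10 of the mean CPM in GSK-J4 plus 0.5 (horizontal axis) for the 9899 genes tested, with the 307 called higher in orange, the 80 called lower in blue and the 6 genes circled. Rasd2 is the lowest point, Gpr157 lies at the right among abundant genes, and Agpat9 and Amz1 lie at the edge of the genes that were not called.

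Levels were compared between genes per kilobase of exon (CPM per kb, exon length from GENCODE), over the 15792 genes with a length and a count in GSK-J4. Gpr157 stood at 158 ± 9.59 CPM per kb in GSK-J4, above 98.7% of these genes, and at 16.3 ± 0.515 in LPS + GSK-J4, still above 84.6%. The next 3 overlapped each other in GSK-J4, with Agpat9 at 12.5 ± 1.10, Ppp1r3c at 11.1 ± 2.09 and Rasd2 at 11.0 ± 1.71 CPM per kb (SD, n = 3 each). They stood above 79.8, 77.6 and 77.3% of genes.

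Amz1 followed at 5.86 ± 0.730 CPM per kb (above 64.8% of genes), and Drd1 at 2.57 ± 0.404 (above 48.5%), each without overlap with the gene before it. By level, then, Gpr157 was among the abundant transcripts under GSK-J4, Agpat9, Ppp1r3c and Rasd2 were in the upper part of the range, and Drd1 was near its middle and cannot be called high. In LPS + GSK-J4 the order changed: Agpat9 (4.19 ± 0.901 CPM per kb) and Amz1 (2.34 ± 0.123) came after Gpr157, and Ppp1r3c (1.42 ± 0.268), Rasd2 (0.572 ± 0.363) and Drd1 (0.282 ± 0.196) were last, above 38.2, 25.8 and 18.4% of genes.

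The counts came from the strand of each gene. On the other strand, Gpr157 had 32 counts over the GSK-J4 libraries and 2 over the LPS + GSK-J4 libraries, and the other 5 genes had between 0 and 4 over each group. Over all libraries the other strand held 0.402 to 1.94% of a gene's counts. Amz1 overlaps the 3′ part of the G protein subunit gene Gna12, which lies on the minus strand, and the strand of the library keeps their counts apart.

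The genes of each pathway were read from the same fit, and their counts are set beside the shares called over all genes, 0.808% lower and 3.1% higher. At an unadjusted p under 0.05, the shares over all genes tested were 15.2% lower and 20.0% higher. In the list around dopamine receptors and Gs-cAMP signalling, 34 genes without Drd1, 23 were tested, 0 were called lower and 2 higher, with a median log2 fold change of 0.07. At an unadjusted p under 0.05, 2 were lower and 5 higher, and DESeq2 called 0 lower. Pde4b, a cAMP phosphodiesterase, rose from 66.9 ± 23.9 to 255 ± 32.2 CPM (log2 fold change 2.00, SE 0.19, edgeR adjusted p = 1.15e-06), and Pde10a, a phosphodiesterase abundant in striatum, rose from 4.94 ± 0.862 to 13.9 ± 1.59 CPM (1.55, SE 0.31, edgeR adjusted p = 0.00152). Only 1 of these calls was made without GSK-J4 replicate 1 or without LPS + GSK-J4 replicate 3. Of the other dopamine receptors, Drd4 and Drd5 were at 0 in all 6 libraries, and Drd2 and Drd3 had 2 counts each in LPS + GSK-J4 replicate 3 and 0 elsewhere. Drd1 was thus the only dopamine receptor with more than 2 counts in any library, which is a description of these counts.

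Since Drd1 and Rasd2 are known from medium spiny neurons, 14 other genes of those cells were read. Of these, 3 were tested, 0 were called lower by edgeR or DESeq2 and 1 higher by edgeR, with a median of 0.80; at an unadjusted p under 0.05, 0 were lower and 2 higher. Penk, the enkephalin precursor, rose from 3.06 ± 0.682 to 9.69 ± 4.50 CPM (log2 fold change 1.68, SE 0.41, edgeR adjusted p = 0.00730), a call that DESeq2 did not make and that was lost in 5 of 6 fits without 1 library, all but that without LPS + GSK-J4 replicate 1. Scn4b, a sodium channel subunit of these neurons, was at 0 in all libraries, and Ppp1r1b, which encodes the dopamine-regulated phosphatase inhibitor DARPP, had 2 to 4 counts. In the GSK-J4 libraries, where Drd1 had 19 to 25 counts and Rasd2 71 to 93, the striatal genes that were not tested had at most 6 counts, and those tested, Penk, Rgs9 and Pde1b, had 4 to 9, 18 to 20 and 219 to 336.

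In the list of Rasd and small Ras-like GTPases, 25 genes without Rasd2, 13 were tested and 0 were called in either direction by edgeR or DESeq2 (median 0.15), while 2 were lower and 4 higher at an unadjusted p under 0.05. Rasd1, the closest relative of Rasd2, had 1 to 4 counts in each library and was not tested. Rit1 (-1.09, SE 0.18) and Rap2a (-0.91, SE 0.13) were lower and Mras (0.97, SE 0.22) and Rap2b (0.48, SE 0.12) higher at an adjusted p of at most 0.01, all 4 short of the limit on the fold change.

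Among 28 orphan and proton-sensing G protein-coupled receptors without Gpr157, 14 were tested, 1 was called lower by edgeR and DESeq2 and 0 higher (median -0.13), with 4 lower and 2 higher at an unadjusted p under 0.05. Gpr146 fell from 63.5 ± 4.07 to 20.8 ± 9.29 CPM (log2 fold change -1.54, SE 0.24, edgeR adjusted p = 0.000185). Its counts were 149, 177 and 116 under GSK-J4 and 23, 29 and 49 with LPS added. Its call was lost without GSK-J4 replicate 3, LPS + GSK-J4 replicate 1 or LPS + GSK-J4 replicate 2. Gpr162 (-1.34, SE 0.32) and Gpr137b (-0.63, SE 0.14) were lower at an adjusted p of at most 0.01 but short of the limit, and Gpr84, a receptor for medium-chain fatty acids known from activated microglia, was at 1.47 (SE 0.19), just short of it in the other direction. The largest decrease in this list was that of Gpr146, while Gpr157 had been chosen for its own. All genes of the list are named Gpr, so receptors with other names were not read in it.

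In the list of glycogen metabolism, 29 genes without Ppp1r3c, 19 were tested, 1 was called lower by edgeR and DESeq2 and 0 higher, with 6 lower and 0 higher at an unadjusted p under 0.05. Ppp1r3b, another subunit that targets protein phosphatase 1 to glycogen, fell from 79.4 ± 11.9 to 20.3 ± 5.25 CPM (log2 fold change -1.88, SE 0.21, edgeR adjusted p = 6.23e-06). It had 235, 203 and 123 counts in replicates 1, 2 and 3 of GSK-J4 and 41, 36 and 23 in those of LPS + GSK-J4. Gys1, the glycogen synthase that these subunits act on, went from 201 ± 25.0 to 87.3 ± 31.0 CPM (-1.13, SE 0.19), Gyg, the glycogenin primer, had a log2 fold change of -0.94 (SE 0.14) and Pygl, a glycogen phosphorylase, one of -0.92 (SE 0.13). All 3 had an adjusted p of at most 0.01 and were short of the limit on the fold change.

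In all, 17 of the 19 glycogen genes had a negative fold change, with a median of -0.25 against 0.01 over all genes tested. The microglial marker list moved the same way, with 10 of 10 negative and a median of -0.32, and its part in the glycogen values was not tested. Of the other targeting subunits, Ppp1r3a was at 0 in all libraries, Ppp1r3g had at most 1 count in a library, and Ppp1r3d, Ppp1r3e and Ppp1r3f had 3 to 14 counts and were not tested. Ppp1r3c and Ppp1r3b were thus the only glycogen-targeting subunits with more than 14 counts in any library.

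In the list of glycerolipid synthesis, 20 of 21 genes without Agpat9 were in the tables, 16 were tested and 0 were called in either direction by edgeR or DESeq2 (median 0.06), with 2 lower and 2 higher at an unadjusted p under 0.05. The other glycerol-3-phosphate acyltransferases were not called: Gpam, of the mitochondria, had a log2 fold change of -0.27 (SE 0.27), Agpat6 (now Gpat4) one of 0.21 (SE 0.28), and Gpat2 had at most 3 counts in a library and was not tested. Plin3, a lipid droplet protein, was at -0.69 (SE 0.17), the only gene of the list at an adjusted p of at most 0.01. Amz2, the other archaemetzincin, had a log2 fold change of 0.02 (SE 0.19), with 30.6 ± 3.06 CPM under GSK-J4 and 29.2 ± 0.941 with LPS added. The relatives of Agpat9 and Amz1 that were tested were therefore not called, and a relative of Ppp1r3c was.

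**Figure D4:**
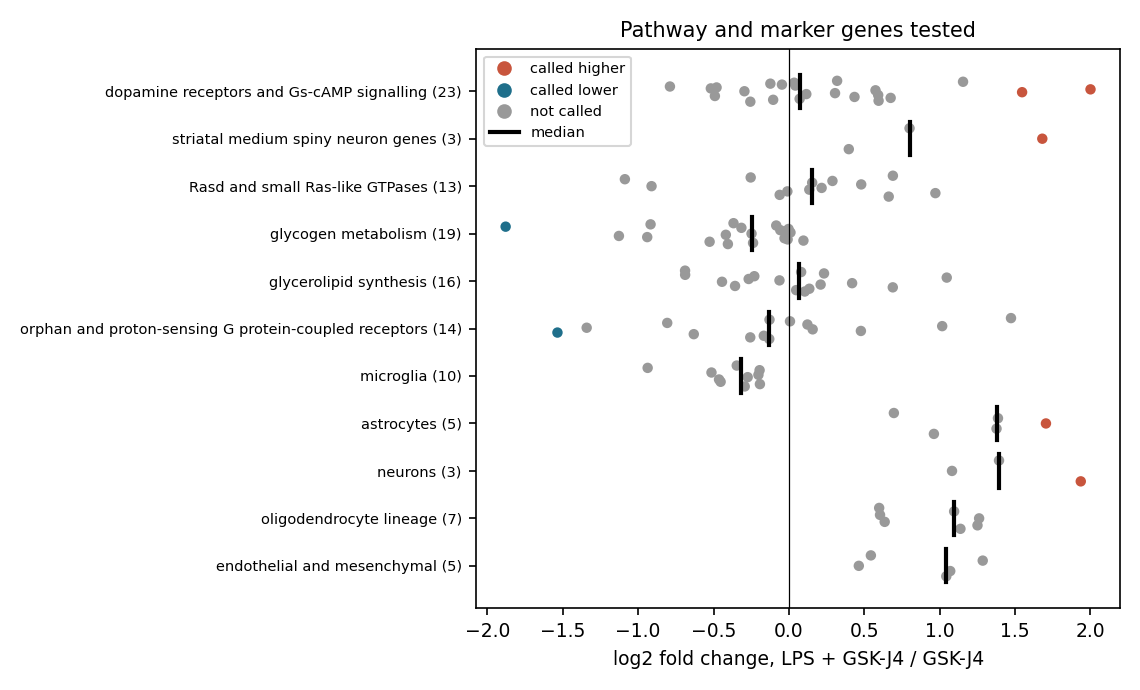
log2 fold change of LPS + GSK-J4 over GSK-J4 (horizontal axis) of each tested gene of the pathway and marker lists, the 6 genes left out and the number tested in parentheses; colours mark genes called higher or lower and black bars the median. Genes called lower are Ppp1r3b in the glycogen list and Gpr146 among the receptors, the glycogen and microglial lists lie mostly below 0, and the marker lists of other cell types lie above it.

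Markers of other brain cells went the other way. The summed level of 8 astrocyte markers was 89.0 to 94.8 CPM under GSK-J4 and 206 to 246 CPM with LPS added, that of 10 neuronal markers 32.0 to 34.8 and 67.6 to 86.6 CPM, and that of 9 oligodendrocyte lineage markers 318 to 344 and 559 to 657 CPM. Of the genes tested, 5, 3 and 7 in these lists, all had a positive fold change, and Gfap (1.71, SE 0.19) and Gad1 (1.94, SE 0.39) were called higher. The summed level of 10 microglial markers was 5124 to 5460 CPM under GSK-J4 and 3862 to 4145 CPM with LPS added. The largest decrease among these microglial markers was that of Tmem119 at -0.94 (SE 0.43). It rested on 31, 18 and 10 counts under GSK-J4 and 7, 4 and 9 with LPS added. Of 7 endothelial and mesenchymal markers, 5 were tested and 0 called by edgeR or DESeq2 (1 higher at an unadjusted p under 0.05), Cldn5 was at 0 in all libraries, and the summed level of 131 to 458 CPM under GSK-J4 and 210 to 648 CPM with LPS added overlapped. The part of these lists in the values of the 6 genes was not tested.

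The genes beside the 6 were a readout that the choice did not use. The 12 nearest neighbours were the first annotated gene on each side that was among the features counted. Agpat9 also overlaps 4930458D05Rik and Gm42987, which were not counted. Of the 12, 6 were tested and 0 were called in either direction by edgeR or DESeq2, against 3.91% of all genes tested. At an unadjusted p under 0.05, where 15.2% of all genes tested were lower and 20.0% higher, 2 neighbours were lower and 1 higher. Their median log2 fold change was -0.23, with a range of -0.51 to 0.65. Gpr157 lies between Mir34a, 18809 bases away, and Slc2a5, 13355 bases away, which had at most 2 counts and 1 count in a library. Beside Rasd2, the replication gene Mcm5, 85504 bases away, was at 0.65 (SE 0.23), and 1700007B14Rik was at 0 in all libraries. Beside Drd1, Sfxn1, a mitochondrial carrier 16163 bases away, was at 0.18 (SE 0.20), and 4930555G21Rik was at 0.

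Beside Ppp1r3c, Tnks2, a tankyrase 97578 bases away, was at -0.39 (SE 0.14), and 1500017E21Rik had at most 3 counts. Next to Agpat9, Fam175a, 24747 bases away, was at -0.51 (SE 0.37) on 7 to 24 counts, and Nkx6-1 had 1 count in all. Around Amz1, Brat1, 4747 bases away on the same strand, was at -0.08 (SE 0.27) and the overlapping Gna12 at -0.38 (SE 0.14). The other 6 neighbours had too few counts to test.

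**Figure D5:**
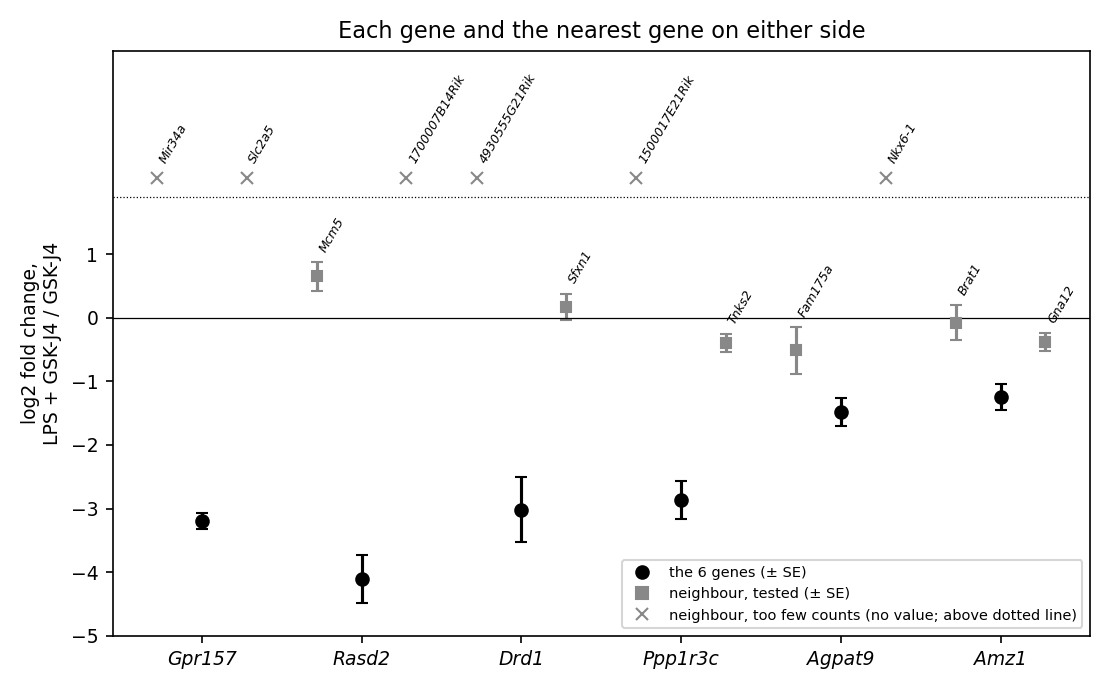
log2 fold change ± SE of LPS + GSK-J4 over GSK-J4 (vertical axis) of the 6 genes (black circles) and of the nearest counted gene on either side (grey squares). The neighbours that had too few counts to test are crosses above the dotted line, where the axis has no value. The 6 tested neighbours lie between -0.51 and 0.65, and the 6 genes between -4.11 and -1.24.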

How the data were processed

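RNA-seq of 6 libraries was analysed, 3 of PM treated with GSK-J4 and 3 of PM treated with LPS and GSK-J4. The kit was directional and rRNA had been depleted. The tools named in the submitters' processing notes are CASAVA 1.8.2, Trimmomatic 0.33, STAR 2.5.1 and DESeq2, and reads were aligned to mm10. The authors deposited raw counts of fragments per gene from STAR for each library, without normalization, in 3 columns of which the reverse-strand column was used here. STAR counts fragments that map to a single place and overlap a single gene, and the annotation used for counting is not given in the sources used here. Counts on genes came to 2597505 to 3472716 per library. A mean of 3 counts or fewer, as for Drd1 and Rasd2 in LPS + GSK-J4, gives little precision.

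Titles gave the group and replicate number of each sample. The 6 genes, the gene lists, the marker lists and the tests were chosen with earlier results of these data known. Rn45s was left out, and counts were scaled by TMM factors and fitted in R 4.3.3 with edgeR 4.0.16 and limma 3.58.1 (filterByExpr, minimum count 10, minimum total 15; robust quasi-likelihood test between the groups, no covariates; Benjamini-Hochberg adjustment over 9899 genes). Fold changes are on edgeR's log2 scale. The SE beside each is its size divided by the square root of the F statistic of the quasi-likelihood test. The DESeq2 Wald test gave a larger SE for each of the 6 genes, among them 0.56 for Rasd2, 0.81 for Drd1 and 0.44 for Ppp1r3c. No p is given for the 6 genes, and an exact permutation test of 3 libraries against 3 cannot go below 0.1. The fit was tested on simulated data. Alternatives were unstranded counts, Rn45s kept, Rn45s, Mir6236 and Lars2 left out, DESeq2 size factors, library totals, the DESeq2 1.42.0 Wald test, no filter, at least 10 counts in every library, a block for the replicate number, and fits without each library or without replicate 3 of both groups; for counts over all genes, also other thresholds.

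The genes named are the 6, the 5 most decreased genes called lower that are not among them, the 2 genes nearest in profile to each, their neighbours, the genes called in each pathway list with the closest relatives of the 6, and, of the marker lists, the genes called, at 0 or most abundant, with Tnf as a check. Other genes that are named (those at an adjusted p of at most 0.01 short of the fold limit, Gpr84, Ppp1r1b and Tmem119) were chosen after their values were seen. Positions and exon lengths are from GENCODE on mm10, with a length for 23973 of 24411 features, and promoters are from RefSeq. Agpat9 was matched through an older symbol. Values of some genes are not reported here. Intervals were computed with scipy 1.17.1, tables with pandas 2.3.3 and plots with matplotlib 3.10.9, in Python 3.11.15.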

Additional observations from a re-analysis of the deposited data

How the results depend on the processing

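Every alternative fit of the 6 genes gave a lower level in LPS + GSK-J4, 93 fits in all, and 89 moved the log2 fold change by less than the spread between replicates. Gpr157 moved to -3.27 with library totals and to -3.28 without a filter. Drd1, Rasd2 and Ppp1r3c have no value with at least 10 counts in every library, since they are then left out. Leaving out 1 library at a time gave log2 fold changes of -3.27 to -3.14 for Gpr157, -4.66 to -3.71 for Rasd2, -3.71 to -2.69 for Drd1, -3.07 to -2.73 for Ppp1r3c, -1.63 to -1.32 for Agpat9 and -1.32 to -1.15 for Amz1; the ends at -2.69 and -3.07 are without replicate 3 of both groups. With the limits at 0.05 for the adjusted p and 1 for the log2 fold change, 276 genes were called lower and 852 higher over the whole table. With at least 10 counts in every library 54 were called lower and 183 higher, where fewer genes were tested. The number called lower, 80 in the main fit, was 103 with library totals and 116 without a filter.

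In the lists, 183 of 206 counts kept to the main value. The dopamine and Gs-cAMP list had 1 gene called higher with library totals, without a filter and with at least 10 counts in every library, and 1 to 2 when libraries were left out. The striatal list had 0 called higher with the DESeq2 Wald test and with at least 10 counts in every library, 2 without a filter, and 0 to 1 when libraries were left out. The small Ras-like GTPases had 1 called higher without a filter. The receptor list had 0 to 2 called lower and 0 to 1 higher when libraries were left out. The cause was not tested.

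Deviations from the group means had r of -0.01, 0.13 and 0.31 between libraries with the same number, for replicates 1, 2 and 3. Between libraries with different numbers r was -0.30 to 0.25, so the value for replicate 3 was the highest. Whether the replicate numbers stand for pairs was not tested. With the replicate number as a block, the log2 fold changes were -3.19 for Gpr157, -4.13 for Rasd2, -3.03 for Drd1, -2.86 for Ppp1r3c, -1.495 for Agpat9 and -1.23 for Amz1, 86 genes were called lower and 314 higher, and the call of no gene of the 6 changed. Depth limits Drd1 and Rasd2 in LPS + GSK-J4, where 5 and 9 counts in all set their size.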

Other observations

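The genes with the largest decreases that are not among the 6 were Dusp13, Cd28, Fbxo32, Pkdcc and Plcxd2, with log2 fold changes of -2.87, -2.78, -2.75, -2.74 and -2.66, each at an edgeR adjusted p of at most 2.69e-05. Fbxo32, the muscle ubiquitin ligase subunit known as atrogin, had 849, 982 and 507 counts in GSK-J4 and 70, 80 and 76 in LPS + GSK-J4 (329 ± 37.9 and 46.1 ± 2.90 CPM, SD, n = 3 each). Pkdcc, a secreted tyrosine kinase, had 1103, 1198 and 920 counts and 94, 98 and 133. Cd28, the co-stimulatory receptor of T cells, had 250, 272 and 142 counts and 21, 16 and 26. Plcxd2 had 713, 748 and 406 counts and 63, 68 and 62. Dusp13, a dual-specificity phosphatase gene, had 41, 46 and 27 counts and 4, 3 and 3. The groups did not overlap in these 5 genes, which were picked on this contrast. Of all genes tested, 21.5% were lower without overlap.

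The profile of each of the 6 genes over the 6 libraries, centred on its own mean, was set against that of every gene tested outside the 6 by the Euclidean distance of log2 CPM. The nearest to Gpr157 were Fbxo32 (0.655) and Pkdcc (0.713), and the same genes were nearest to Rasd2 at larger distances (1.52 and 1.51), while Gpr157 itself was nearer to Rasd2 (1.18). Drd1 was nearest to Abhd10 (0.328) and Mrgpre (0.524), and Ppp1r3c to Plcxd2 (0.361) and Fbxo32 (0.393). Agpat9 was nearest to the cyclin gene Ccnf (0.252) and the histone gene Hist2h4 (0.258), and Amz1 to Slc36a4 (0.187) and Zfand2a (0.216). Hist2h4 belongs to a family of near-identical copies, and its counts of 5 to 30 are uncertain. The distances describe 6 libraries in 2 groups, so any gene with a decrease of like size comes out near.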
